A study of Mus musculus with 6 samples.

Results

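The α and β segments of the T cell receptor (TCR) were followed in RNA-seq libraries of γδ thymocytes, thymic T cell precursors with a γδ receptor on their surface. Segments were chosen by name: all *Trav* genes except those with a -dv name, which also serve δ chains, and all *Traj*, *Trac*, *Trbv*, *Trbd*, *Trbj* and *Trbc* genes. The rule took 189 of the 41195 genes in the tables, namely 98 *Trav*, 51 *Traj*, 1 *Trac*, 22 *Trbv*, 2 *Trbd*, 13 *Trbj* and 2 *Trbc* genes. The 2 genotypes had 3 libraries each. In *Rag1Cre-Nfatc1fl/fl* mice, Cre recombinase made from the *Rag1* locus removes the loxP-flanked exon 3 of both *Nfatc1* alleles in early thymocytes, which addresses what the transcription factor NFATc1 does at that stage. *Nfatc1fl/fl* control mice carry the same loxP-flanked alleles without Cre. All mice were young, on a C57/B6 background and matched for sex and age, and γδ thymocytes were enriched from both with a magnetic TCRγ/δ kit, so other thymocytes may remain. Whether the 3 libraries of a genotype stem from different animals is not given in the labels, and the replicate spread behind each p-value may therefore be technical.

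αβ T cells build their receptor in steps. The β chain is assembled first, at the CD4-CD8- stage, by joining one *Trbv*, one *Trbd* and one *Trbj* segment, and it is tested on the surface together with the pre-TCRα chain. The α chain is assembled later, in CD4+CD8+ cells, by joining a *Trav* to a *Traj* segment, which removes the δ locus lying between them. γδ thymocytes leave this path early, but many of them carry β rearrangements, and the β and α constant regions are also transcribed from loci that have not been rearranged. Read counts per gene do not tell rearranged from unrearranged transcripts.

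The libraries held 20734771 to 22383691 counted reads in the *Rag1Cre-Nfatc1fl/fl* group and 21677186 to 22638531 in the controls. α and β segments took 0.103% to 0.14% of them in *Rag1Cre-Nfatc1fl/fl* libraries and 0.138% to 0.139% in controls. The *Rag1Cre-Nfatc1fl/fl* replicate 3 stood apart from its group: over all tested genes its chi-square per degree of freedom was 70.9 and 63.5 against replicates 1 and 2, while these 2 gave 7.89 against each other. *Nfatc1* itself had 7987, 9603 and 5872 reads in the libraries labelled *Rag1Cre-Nfatc1fl/fl* and 4581, 4736 and 4612 in the controls, and was called higher (log2 fold change 0.87, edgeR adjusted p = 0.0028, by the thresholds given below). *Zbtb16*, *Il4* and *Cd4*, picked after their values were seen, were called higher as well, at 2.75, 3.81 and 1.34 (edgeR adjusted p = 0.000366, 9.31e-05 and 0.000353). The *Nfatc1* reads were counted over the whole gene, not over exon 3, and are no check of the deletion or of a label, so every direction below is that of the libraries as labelled. For γδ identity, *Trdc*, the δ constant region, had 1768 to 2762 reads in *Rag1Cre-Nfatc1fl/fl* libraries and 4497 to 4637 in controls.

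Of the 189 segments, 108 had at least 1 read and 81 had none. Reads were concentrated in the constant regions: *Trbc1* and *Trbc2* held 143744 of the 168063 reads, the *Trbv* segments 15632, *Trac* 4895 and the *Trav* segments 3731. Joining and diversity segments were nearly blank, with 58 reads for *Trbj*, 3 for *Traj* and 0 for *Trbd*. These segments are 12 to 66 bases long, and how the counting treated a read that spans a V, a J and a C segment is not stated, so nothing about rearrangement was read from their rows. Testing of all genes together left 37 segments with enough reads, 15 *Trav*, 19 *Trbv*, *Trac*, *Trbc1* and *Trbc2*. The 71 others with reads had 1 to 43 reads each over all libraries (median 7).

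*Trav14-3* alone passed both thresholds, which were those of the study: an adjusted p below 0.01, and a log2 fold change beyond 0.5 in either direction (edgeR quasi-likelihood, Benjamini-Hochberg over 13185 tested genes). No segment was called higher and 1 was called lower, against 6.47% and 3.51% of all tested genes. In either direction that is 1 of 37 segments, beside 9.98% of all tested genes. At an adjusted p under 0.05 with no limit on the fold, 2 segments were higher and 4 lower, against 13.2% and 10.1% of all tested genes.

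**Figure D1:**
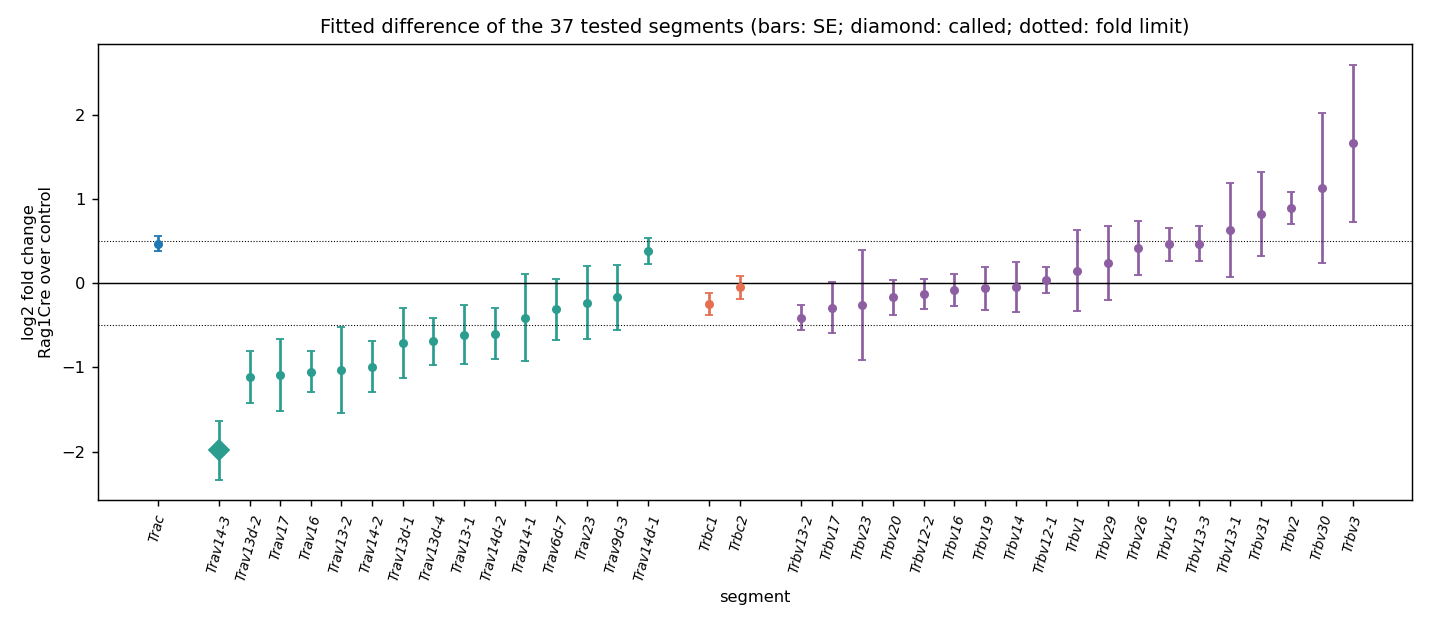
Log2 fold change (y axis, *Rag1Cre-Nfatc1fl/fl* over control, edgeR fit) of the 37 tested segments (x axis, grouped as *Trac*, *Trav*, *Trbc* and *Trbv* and sorted within each). Bars are standard errors, dotted lines the fold limit of 0.5, and the diamond is *Trav14-3*, the 1 called segment, at -1.98. Of the 15 *Trav* segments 14 lie below 0, while the 19 *Trbv* segments lie on both sides.

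*Trac*, the single α constant region, was higher in the *Rag1Cre-Nfatc1fl/fl* libraries, with a fold change under the limit for a call. It lies at chromosome 14, 54220521 to 54224206 (GRCm38), downstream of all *Trav* and *Traj* segments. *Trac* had 984, 948 and 806 reads in *Rag1Cre-Nfatc1fl/fl* replicates 1, 2 and 3, against 678, 755 and 724 in control replicates 1, 2 and 3. Scaled to library size with TMM, these were 43.6 ± 1.36 CPM (reads scaled to a common library size) in *Rag1Cre-Nfatc1fl/fl* libraries and 31.5 ± 2.1 CPM in controls (SD, n = 3 each), and every *Rag1Cre-Nfatc1fl/fl* library lay above every control. The log2 fold change was 0.47 (SE 0.0875, edgeR adjusted p = 0.00777), and it lay between 0.41 and 0.51 when any one library was left out (edgeR adjusted p between 0.00101 and 0.0439). Scaled by library size alone, the log2 ratio was 0.37, beside a median of -0.11 for all tested genes under that scaling. Of the 5 constant regions of the γδ receptor 3 were called lower and 0 higher, beside 3.51% and 6.47% of all tested genes. *Trdc* fell by 0.80 on the log2 scale (edgeR adjusted p = 0.00352), and *Tcrg-C1* had a log2 fold change of -0.65 (0.00183), *Tcrg-C3* -0.55 (0.00794), *Tcrg-C2* -0.33 (0.0232) and *Tcrg-C4* 0.25 (0.146). *Trdc* reads were 2.81, 2.87 and 2.19 times those of *Trac* in the *Rag1Cre-Nfatc1fl/fl* libraries and 6.63, 6.03 and 6.4 times in the controls. In bulk RNA, a different number of cells that make a transcript and a different amount of it per cell cannot be told apart.

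The *Trav* segments encode the variable part of the α chain, and their sum went the other way from *Trac*. All 98 together gave 24.2, 21.2 and 28.2 CPM in *Rag1Cre-Nfatc1fl/fl* libraries, against 30.2, 33.2 and 33.1 CPM in controls, with no overlap. *Trav* segments made up 34.9%, 32.9% and 39.9% of all α reads in the *Rag1Cre-Nfatc1fl/fl* libraries (exact 95% binomial intervals from 30.5% to 42.6%) and 50.8%, 50% and 50.7% in the controls (from 47.4% to 53.5%). Intervals here and below cover counting error only. The α reads as a whole, *Trac* included, overlapped between genotypes at 68.1 ± 3.39 CPM in *Rag1Cre-Nfatc1fl/fl* libraries and 63.7 ± 3.69 CPM in controls (SD, n = 3 each).

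*Trav14-3* (ENSMUSG00000094212, chromosome 14, 53763173 to 53763694), one of the *Trav14* segments that encode Vα2, had the lowest fold change. It had 18, 12 and 6 reads in the *Rag1Cre-Nfatc1fl/fl* libraries, against 58, 49 and 48 in the controls, all of them unique to the segment. The highest *Rag1Cre-Nfatc1fl/fl* library thus lay far under the lowest control. The log2 fold change was -1.98 (SE 0.35, edgeR adjusted p = 0.00606). It lay between -2.36 and -1.70 without any one library, and the call was lost without *Rag1Cre-Nfatc1fl/fl* replicate 2 (edgeR adjusted p = 0.0275) and without control replicate 1 (0.0316), 2 (0.0264) or 3 (0.0262).

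*Trav16* lies some way upstream of it, at 53743104 to 53743705. This segment had 52, 37 and 54 reads in *Rag1Cre-Nfatc1fl/fl* libraries and 99, 104 and 123 in controls, again without overlap. Its log2 fold change of -1.05 with an SE of 0.239 (edgeR adjusted p = 0.0172) missed the threshold. *Trav14-2* had 28, 26 and 18 reads in *Rag1Cre-Nfatc1fl/fl* libraries, against 37, 53 and 65 in controls (log2 fold change -0.99, SE 0.3, edgeR adjusted p = 0.0487). *Trav13-2* overlapped between the groups, with 20, 6 and 28 reads in *Rag1Cre-Nfatc1fl/fl* libraries and 33, 51 and 39 in controls (log2 fold change -1.03, edgeR adjusted p = 0.18). *Trav13d-4* gave -0.69 (edgeR adjusted p = 0.108) with 20, 22 and 28 reads in *Rag1Cre-Nfatc1fl/fl* libraries, against 42, 39 and 44 in controls. Over the 15 tested *Trav* segments, fold changes lay between -1.98 and 0.38 with a median of -0.69, while the median of all tested genes was -0.01. Groups did not overlap in 10 of the 15, 9 with the *Rag1Cre-Nfatc1fl/fl* libraries below and 1 with them above, where 23.4% and 23.3% of all tested genes did so (46.7% in either direction). Among the 3679 tested genes in the same range of mean CPM (0.512 to 7.31), 19.7% had the *Rag1Cre-Nfatc1fl/fl* libraries below, and their median was 0.02. The segments are not independent of each other, since several share reads.

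The exception with the *Rag1Cre-Nfatc1fl/fl* libraries above was *Trav14d-1*, and it was also the *Trav* segment with the most reads. It had 159, 189 and 169 reads in *Rag1Cre-Nfatc1fl/fl* libraries, against 163, 149 and 123 in controls, which is 8.27 ± 0.861 CPM in *Rag1Cre-Nfatc1fl/fl* libraries and 6.34 ± 0.789 CPM in controls (SD, n = 3 each). The log2 fold change was 0.38 (SE 0.158, edgeR adjusted p = 0.12). None of its 952 reads was unique, so each could have come from another copy.

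The mouse α locus is built with repeated blocks of V segments whose copies bear the letters d and n. Reads that fit several copies count toward the total and are left out of the unique reads. The 30 d copies had 1916 reads, of which 2.92% were unique. The 28 n copies had 136 reads, 85.3% of them unique, and the 40 segments with no letter had 1679, 99.7% unique. Shared reads therefore sat almost wholly on the d copies, whose block lies before that of the n copies on the chromosome. Segments with no letter summed to 10.3, 6.78 and 10.9 CPM in *Rag1Cre-Nfatc1fl/fl* libraries, against 14.1, 16.9 and 17.3 CPM in controls, a ratio of 0.579 with no overlap. The d copies summed to 12.5, 13.8 and 16.6 CPM in *Rag1Cre-Nfatc1fl/fl* libraries and 15.1, 15.5 and 14.4 CPM in controls, and overlapped.

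**Figure D2:**
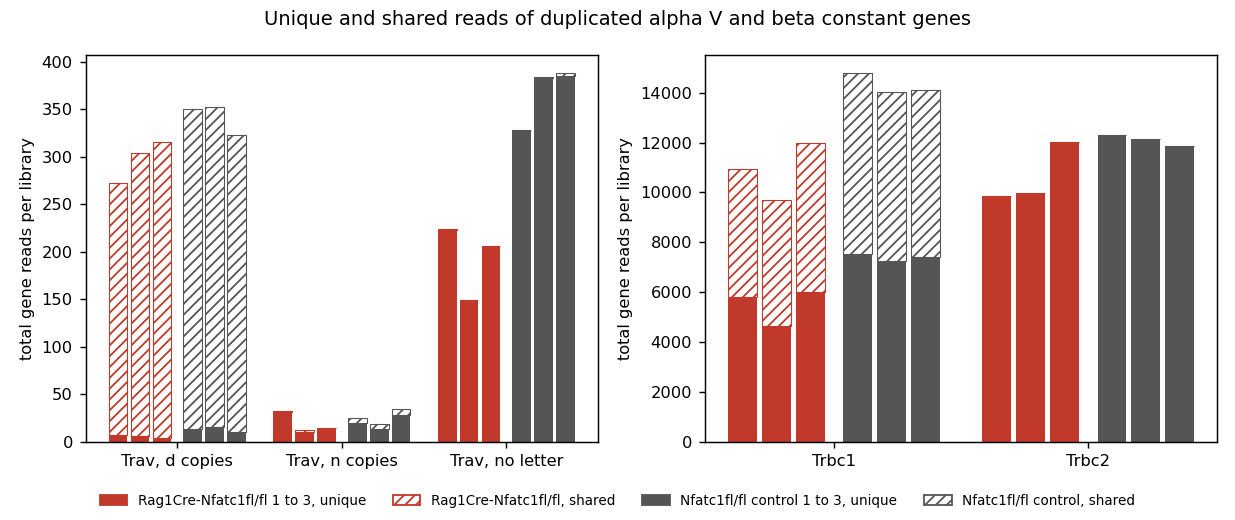
Total gene reads per library (y axis) of the *Trav* segments by copy letter (left) and of *Trbc1* and *Trbc2* (right), with *Rag1Cre-Nfatc1fl/fl* replicates 1 to 3 in red, left of control replicates 1 to 3 in grey. Filled parts are unique reads and hatched parts reads that fit more than one gene. The d copies are almost all hatched, the segments with no letter almost all filled, and the shared reads of the β constant regions sit on *Trbc1* only.

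When the *Trav* region was cut into 3 parts of equal length, the part nearest to *Trac* (53461099 to 53977678, 28 segments) held 1652 reads, 1647 of them unique. It gave 10, 6.74 and 10.6 CPM in *Rag1Cre-Nfatc1fl/fl* libraries and 13.8, 16.6 and 17.2 CPM in controls. The farthest part (52427928 to 52943289) gave 9.63, 11 and 12.1 CPM in *Rag1Cre-Nfatc1fl/fl* libraries and 11.1, 10.9 and 8.85 CPM in controls. Of the 3, the part nearest to *Trac* alone separated the genotypes without overlap. The farthest part had 57 unique reads among 1388, so its reads could not be placed.

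The β constant regions carry the bulk of the signal. *Trbc1* (chromosome 6, 41538218 to 41539881) and *Trbc2* (41546730 to 41548352) encode nearly the same protein and each follows its own set of D and J segments. Their coding sequences (GENCODE vM1) are shown from base 223 to base 512, since what differs between them decides which reads can be assigned. Capitals mark the bases that differ.
Trbc1: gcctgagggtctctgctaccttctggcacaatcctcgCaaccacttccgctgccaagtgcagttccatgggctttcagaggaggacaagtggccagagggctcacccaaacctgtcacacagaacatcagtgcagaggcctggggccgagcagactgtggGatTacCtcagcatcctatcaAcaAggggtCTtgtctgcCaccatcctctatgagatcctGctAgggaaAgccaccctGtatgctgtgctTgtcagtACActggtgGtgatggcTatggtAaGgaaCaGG
Trbc2: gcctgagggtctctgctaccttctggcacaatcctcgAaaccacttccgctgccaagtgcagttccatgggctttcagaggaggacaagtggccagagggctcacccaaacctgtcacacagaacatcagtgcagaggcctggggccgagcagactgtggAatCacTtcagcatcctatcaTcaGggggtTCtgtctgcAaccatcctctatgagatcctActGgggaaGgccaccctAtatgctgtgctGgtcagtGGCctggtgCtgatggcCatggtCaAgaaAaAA
The 2 sequences were identical at 488 of 512 aligned positions (95.3%). They did not differ before base 260 and then not again before base 383. All 24 differences thus lie in the part shown, most of them toward its end, and a read from the first 259 bases fits both genes.

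Of the reads on *Trbc1* 51.2% were unique, and of those on *Trbc2* 100%, so the shared reads stood on *Trbc1* alone. *Trbc1* had 10949, 9697 and 11992 reads in *Rag1Cre-Nfatc1fl/fl* libraries, against 14791, 14024 and 14117 in controls. *Trbc2* had 9844, 9964 and 12033 reads in *Rag1Cre-Nfatc1fl/fl* libraries, against 12291, 12159 and 11883 in controls. The controls lay within a few percent of each other for both genes, while *Rag1Cre-Nfatc1fl/fl* replicate 3 lay well above replicates 1 and 2. The log2 fold change was -0.25 for *Trbc1* (SE 0.133, edgeR adjusted p = 0.201) and -0.05 for *Trbc2* (SE 0.14, edgeR adjusted p = 0.828). Without *Rag1Cre-Nfatc1fl/fl* replicate 3 these were -0.40 (edgeR adjusted p = 0.00153) and -0.22 (0.00902), both under the fold limit. Summed, the pair gave 954, 895 and 1270 CPM in *Rag1Cre-Nfatc1fl/fl* libraries and 1160, 1150 and 1160 CPM in controls.

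*Trbc1* took a smaller part of the unique *Trbc* reads in *Rag1Cre-Nfatc1fl/fl* libraries, which all lay below all controls. The share was 37.1%, 31.9% and 33.3% in *Rag1Cre-Nfatc1fl/fl* replicates 1, 2 and 3, against 38.1%, 37.3% and 38.4% in the controls. The exact 95% interval of *Rag1Cre-Nfatc1fl/fl* replicate 1 (36.4% to 37.9%) overlapped that of control replicate 2 (36.6% to 38%), while the intervals of *Rag1Cre-Nfatc1fl/fl* replicate 2 (31.1% to 32.6%) and replicate 3 (32.6% to 34%) lay below those of all controls; these intervals cover counting error only. By total reads the shares were 52.7%, 49.3% and 49.9% in *Rag1Cre-Nfatc1fl/fl* libraries and 54.6%, 53.6% and 54.3% in controls, again without overlap. The total share books all shared reads on *Trbc1*.

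Per kilobase of annotated span, introns included, β constant reads exceeded α constant reads many times over. *Trac* stood at 12.2, 11.7 and 11.5 CPM per kb in *Rag1Cre-Nfatc1fl/fl* libraries, against 7.91, 9 and 8.74 in controls. On the same scale *Trbc2* stood at 278, 279 and 391 in *Rag1Cre-Nfatc1fl/fl* libraries and 326, 329 and 326 in controls, and *Tcrg-C1* at 71.1, 67.1 and 76.4 in *Rag1Cre-Nfatc1fl/fl* libraries and 107, 113 and 117 in controls. The *Trbc* genes thus had more reads per kb than the α and γ constant regions in every library. Summed *Trbc* over *Trac* reads, each per kb, was 47.4, 46.5 and 66.9 in *Rag1Cre-Nfatc1fl/fl* libraries and 89.5, 77.7 and 80.5 in controls, with no overlap.

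**Figure D3:**
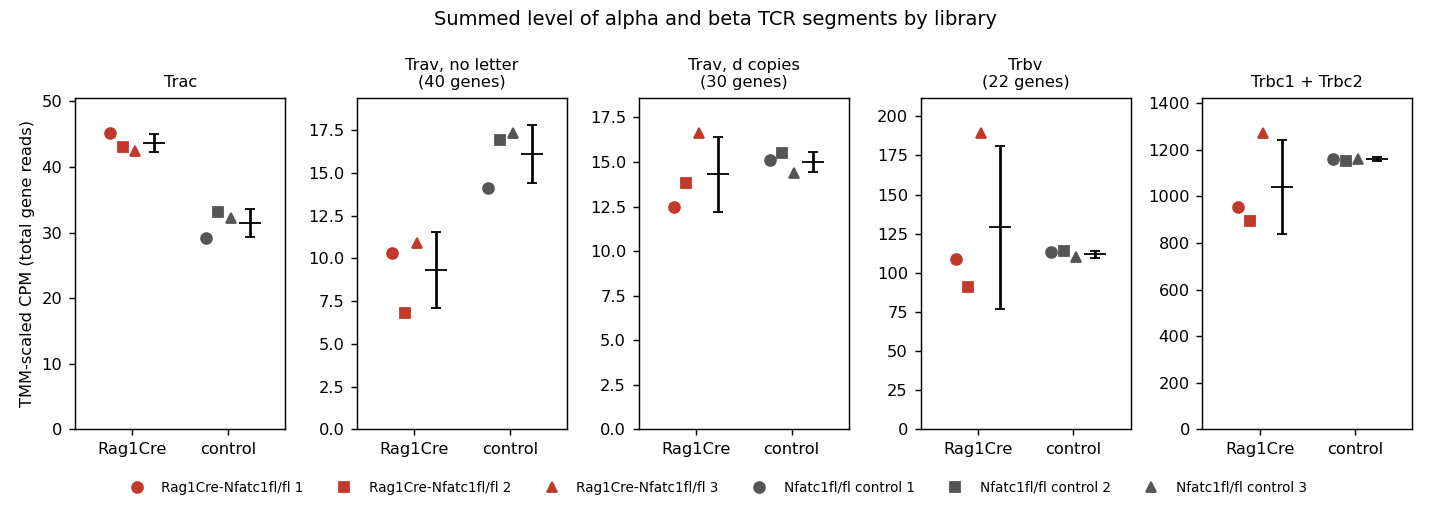
Summed TMM-scaled CPM (y axis, starting at 0) of *Trac*, the *Trav* segments with no letter, the d copies, the *Trbv* segments and *Trbc1* plus *Trbc2* in each library, *Rag1Cre-Nfatc1fl/fl* left of control, with the mean and SD (n = 3) as a black bar. *Trac* is higher and the *Trav* segments with no letter lower in *Rag1Cre-Nfatc1fl/fl* libraries without overlap, and *Rag1Cre-Nfatc1fl/fl* replicate 3 (triangle) lifts the *Trbv* and *Trbc* sums to 189 and 1270.

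The *Trbv* segments encode the variable part of the β chain, and 100% of their reads were unique. The 3 *Trbv13* segments encode Vβ8 and are the closest relatives in the group. The last 90 bases of 5 segments (GENCODE vM1 coding sequences, all chromosome 6) are shown because these segments carry the differences described next, and the codon of the conserved cysteine before the joining region is in capitals.
Trbv13-1: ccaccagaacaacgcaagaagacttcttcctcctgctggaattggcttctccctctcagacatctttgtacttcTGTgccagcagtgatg
Trbv13-2: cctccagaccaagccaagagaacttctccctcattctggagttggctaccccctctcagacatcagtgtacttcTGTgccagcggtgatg
Trbv13-3: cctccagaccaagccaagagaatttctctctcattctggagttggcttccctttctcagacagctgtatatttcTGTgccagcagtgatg
Trbv3: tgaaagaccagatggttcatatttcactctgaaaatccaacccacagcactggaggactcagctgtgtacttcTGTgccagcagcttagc
Trbv31: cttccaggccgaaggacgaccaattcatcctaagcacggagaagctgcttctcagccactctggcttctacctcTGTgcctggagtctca
*Trbv13-2* and *Trbv13-3* were identical at 91.2% of aligned bases with a longest shared run of 50, and *Trbv13-1* matched them at 86.8% and 85.9%. *Trbv3* and *Trbv31* matched each other at 49.4%. The *Trbv13* segments are thus alike yet distinct enough for every counted read to be assigned.

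*Trbv13-2* had the highest level of all *Trbv* segments. It had 529, 395 and 514 reads in *Rag1Cre-Nfatc1fl/fl* libraries, against 686, 727 and 690 in controls, which is 23.1 ± 4.68 CPM in *Rag1Cre-Nfatc1fl/fl* libraries and 30.7 ± 1.22 CPM in controls (SD, n = 3 each). All *Rag1Cre-Nfatc1fl/fl* libraries lay below all controls, but the log2 fold change of -0.41 with an SE of 0.148 (edgeR adjusted p = 0.0821) did not pass. Without *Rag1Cre-Nfatc1fl/fl* replicate 3 it was -0.53 (edgeR adjusted p = 0.00728), which is a call. The share of *Trbv13-2* among *Trbv* reads was 22.4%, 19.8% and 14.4% in *Rag1Cre-Nfatc1fl/fl* libraries, against 26%, 28.1% and 28% in controls. The 3 Vβ8 segments together took 33.9%, 28.5% and 29.1% in *Rag1Cre-Nfatc1fl/fl* libraries and 35.2%, 37.9% and 37.7% in controls. Shares in *Rag1Cre-Nfatc1fl/fl* replicate 3 also depend on *Trbv3*, which took 23.1% of *Trbv* reads there. By CPM, *Trbv13-2* stood at 24.3, 18 and 27.1 in *Rag1Cre-Nfatc1fl/fl* replicates 1, 2 and 3, so it was highest where its share was lowest.

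The *Trbv* levels of *Rag1Cre-Nfatc1fl/fl* replicate 3 differed from those of every other library. *Trbv3* (41048290 to 41048828) had 93, 57 and 826 reads in *Rag1Cre-Nfatc1fl/fl* replicates 1, 2 and 3, against 122, 123 and 116 in controls. It took 23.1% of *Trbv* reads in replicate 3 (exact 95% interval 21.7% to 24.5%), 3.93% and 2.86% in replicates 1 and 2, and 4.62%, 4.75% and 4.7% in controls. A single library thus gave all of the excess, and the fitted log2 fold change was 1.66 with an SE of 0.932 (edgeR adjusted p = 0.231). Without that library it was -0.61 (edgeR adjusted p = 0.0666).

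*Trbv13-1*, *Trbv1* and *Trbv31* had the same library at the top, which was the highest for 11 of the 19 tested *Trbv* segments. As a share of *Trbv* reads, *Trbv1* took 5.61% in that library, against 4.28%, 4.17% and 4.99% in controls. *Trbv13-1* had 132, 81 and 401 reads in *Rag1Cre-Nfatc1fl/fl* libraries, against 150, 156 and 148 in controls (log2 fold change 0.63, edgeR adjusted p = 0.447, and -0.44 without replicate 3, edgeR adjusted p = 0.144). *Trbv1* (40891229 to 40891885), the segment farthest from the D, J and C genes, had 52, 84 and 201 reads in *Rag1Cre-Nfatc1fl/fl* libraries and 113, 108 and 123 in controls (0.15, edgeR adjusted p = 0.846, and -0.68 without replicate 3, edgeR adjusted p = 0.0503). *Trbv31* (41557691 to 41558452), which lies beyond *Trbc2* on the minus strand and was picked after its values were seen, had 58, 94 and 228 reads in *Rag1Cre-Nfatc1fl/fl* libraries and 91, 75 and 77 in controls (0.82, edgeR adjusted p = 0.263, and -0.02 without replicate 3, edgeR adjusted p = 0.963). All 4 were high in *Rag1Cre-Nfatc1fl/fl* replicate 3, and for *Trbv3*, *Trbv13-1* and *Trbv1* replicates 1 and 2 lay below the controls.

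Other *Trbv* segments set *Rag1Cre-Nfatc1fl/fl* replicates 1 and 2 apart from each other. *Trbv29*, which encodes Vβ7, had 168, 41 and 106 reads in *Rag1Cre-Nfatc1fl/fl* libraries, against 106, 111 and 77 in controls (log2 fold change 0.24, edgeR adjusted p = 0.73). *Trbv15* had 159, 245 and 151 reads in *Rag1Cre-Nfatc1fl/fl* libraries and 165, 149 and 124 in controls (0.46, edgeR adjusted p = 0.129), and it took 12.3% of *Trbv* reads in replicate 2, against 5.03% to 6.25% in controls. *Trbv26*, picked after its values were seen, had 151, 78 and 58 reads in *Rag1Cre-Nfatc1fl/fl* libraries and 72, 90 and 69 in controls (0.42, edgeR adjusted p = 0.372). Replicate 1 was thus the highest library for *Trbv29* and *Trbv26*, and replicate 2 for *Trbv15*.

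*Trbv2* (41047340 to 41047995), also picked after its values were seen, separated the genotypes. It had 102, 123 and 85 reads in *Rag1Cre-Nfatc1fl/fl* libraries, against 65, 64 and 53 in controls, without overlap. Its log2 fold change of 0.89 with an SE of 0.187 (edgeR adjusted p = 0.0126) missed the threshold for a call. The call was made without *Rag1Cre-Nfatc1fl/fl* replicate 3 (0.96, edgeR adjusted p = 0.00602). *Trbv16*, *Trbv12-2* and *Trbv13-3* had log2 fold changes of -0.08, -0.13 and 0.47 (edgeR adjusted p = 0.788, 0.632 and 0.149). *Trbv13-3* had 140, 91 and 126 reads in *Rag1Cre-Nfatc1fl/fl* libraries and 92, 99 and 92 in controls.

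**Figure D4:**
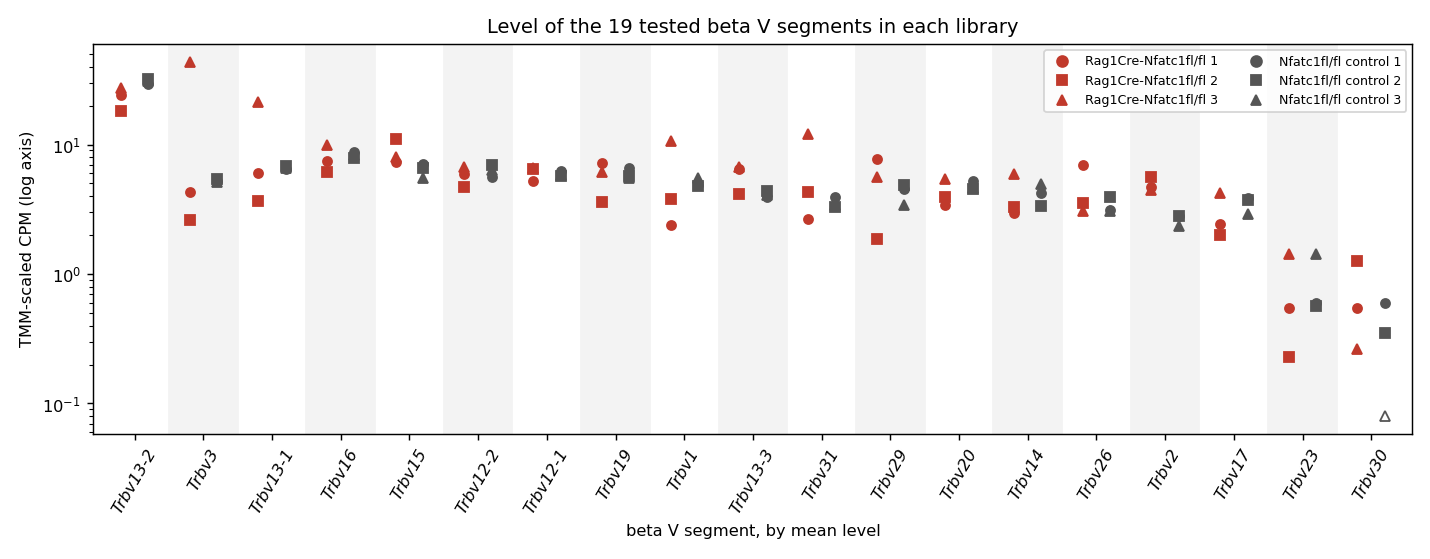
TMM-scaled CPM (log y axis) of the 19 tested *Trbv* segments in each library, ordered by mean level. *Rag1Cre-Nfatc1fl/fl* libraries (red) stand left of controls (grey), with a circle, square and triangle for replicates 1, 2 and 3, and an open symbol marks a library with 0 reads. Controls bunch together while *Rag1Cre-Nfatc1fl/fl* libraries spread, and replicate 3 reaches 43.6 for *Trbv3* and 21.2 for *Trbv13-1*.

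Within a genotype, the *Trbv* segments varied far more among *Rag1Cre-Nfatc1fl/fl* libraries than among controls. The mean absolute log2 difference between 2 libraries, taken on CPM plus 0.5, had a median over the 19 segments of 0.61 in the *Rag1Cre-Nfatc1fl/fl* group and 0.145 in the controls, and it was larger in the *Rag1Cre-Nfatc1fl/fl* group for 19 of 19. Over all tested genes it was 0.249 in the *Rag1Cre-Nfatc1fl/fl* group and 0.124 in the controls, and larger in the *Rag1Cre-Nfatc1fl/fl* group for 73.7%. Over the 6808 tested genes in the CPM range of these segments (0.507 to 26.9) the share was 67.4%. With *Rag1Cre-Nfatc1fl/fl* replicate 3 left out, the pair of replicates 1 and 2 still gave a median of 0.576. That pair was wider than the controls for 15 of 19 segments. Over all tested genes it gave 0.107 and was wider for 44.2%, and over the genes in the CPM range of these segments 0.171 and 45.9%. The 15 *Trav* segments had no such pattern, with medians of 0.32 in the *Rag1Cre-Nfatc1fl/fl* group and 0.288 in the controls, and 7 of 15 wider in the *Rag1Cre-Nfatc1fl/fl* group. These are descriptions with no test.

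The same held for the make-up of the *Trbv* reads. A chi-square per degree of freedom near 1 means that 2 libraries differ by no more than sampling noise. Between *Rag1Cre-Nfatc1fl/fl* libraries it was 11.3 (replicates 1 and 2), 44 (1 and 3) and 41.3 (2 and 3) over the *Trbv* segments, and between controls 1.02 (1 and 2), 2.25 (1 and 3) and 2.11 (2 and 3). Over all tested genes in the same CPM range *Rag1Cre-Nfatc1fl/fl* replicates 1 and 2 gave 3.47 and the control pairs 3.39 to 4.1. Over those genes *Rag1Cre-Nfatc1fl/fl* replicate 3 gave 10.6 against replicate 1 and 11.7 against replicate 2, so it differed there too, though less than over the *Trbv* segments. Control libraries were thus closer in their *Trbv* reads than over all genes of that level, and *Rag1Cre-Nfatc1fl/fl* replicates 1 and 2 farther apart.

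**Figure D5:**
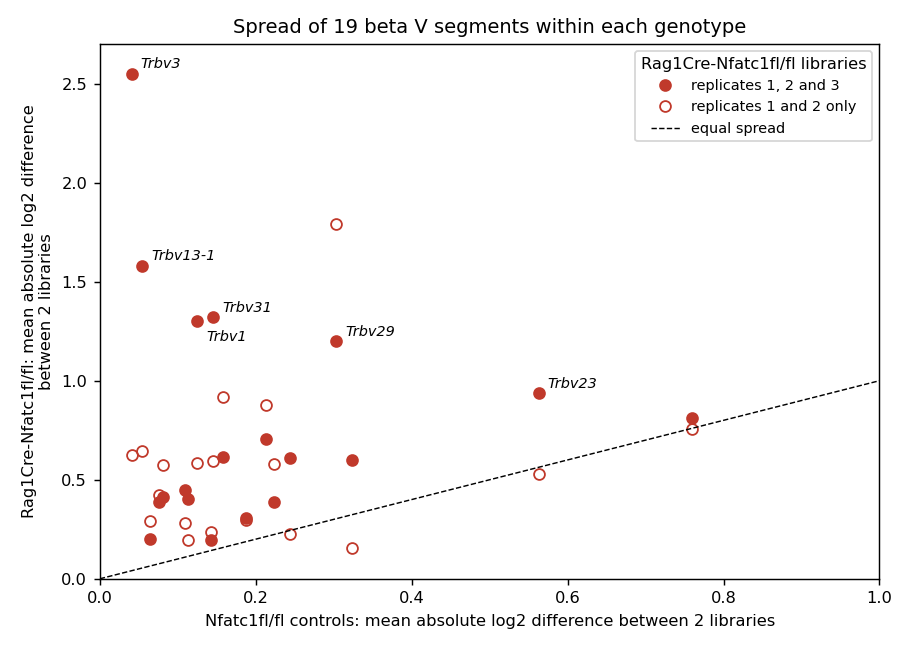
Mean absolute log2 difference between libraries of one genotype for the 19 tested *Trbv* segments, *Rag1Cre-Nfatc1fl/fl* on the y axis and controls on the x axis. Filled points use *Rag1Cre-Nfatc1fl/fl* replicates 1, 2 and 3 and open points replicates 1 and 2 only, and the dashed line marks equal spread. All 19 filled points and 15 of 19 open points lie above the line, and *Trbv3* is the highest at 2.55.

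As a sum, the *Trbv* segments gave 109, 90.7 and 189 CPM in *Rag1Cre-Nfatc1fl/fl* libraries and 113, 114 and 110 CPM in controls, which overlap. For every 100 *Trbc* reads there were 11.4, 10.1 and 14.9 *Trbv* reads in *Rag1Cre-Nfatc1fl/fl* libraries, against 9.74, 9.89 and 9.49 in controls. All *Rag1Cre-Nfatc1fl/fl* libraries lay above all controls on this ratio, replicate 2 by a small margin. *Trbv4* and *Trbv5* had 0 reads in every library, and both lie inside the noncoding gene *5830405F06Rik* on the same strand, which had 313, 766 and 237 reads in *Rag1Cre-Nfatc1fl/fl* libraries and 319, 372 and 312 in controls. Reads of these segments cannot be told from reads of that gene, which was picked after its values were seen.

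The invariant receptor of natural killer T (NKT) cells joins *Trav11* to *Traj18* and pairs with β chains of the *Trbv13*, *Trbv29* and *Trbv1* segments. *Trav11* had no read in any library. Its copy *Trav11d* had 0, 0 and 1 reads in *Rag1Cre-Nfatc1fl/fl* libraries and 1, 1 and 3 in controls, none of them unique. Since shared reads stood mostly on the d copies, these reads cannot be told from reads of *Trav11*, and its 0 alone sets no upper limit. Summed, the 2 copies gave 0, 0 and 0.0528 CPM in *Rag1Cre-Nfatc1fl/fl* libraries and 0.043, 0.0439 and 0.133 CPM in controls. Counted reads of this V segment were thus very few in both genotypes. *Traj18* also had 0 reads, as had 49 of the 51 *Traj* segments, so it could hardly be counted in these tables. The tables therefore give no measure of the join of *Trav11* to *Traj18* in either genotype. Among the 8 NKT marker genes 4 were called higher (*Zbtb16*, *Il4*, *Slamf6* and *Tbx21*) and 0 lower, beside 6.47% and 3.51% of all tested genes. *Cd1d1* and *Gata3* had log2 fold changes of -0.46 and -0.35 without a call. *Cd1d1* encodes CD1d, which presents lipids to NKT cells, so its level does not mark NKT cells as such. The 8 summed to 813 to 1030 CPM in *Rag1Cre-Nfatc1fl/fl* libraries and 702 to 760 in controls. The paper describes the *Zbtb16* product as a regulator of NKT γδ cells too, so its level does not tell αβ from γδ NKT cells. From these RNA reads the cell source of the other markers was not tested. By flow cytometry, the paper reports more γδ thymocytes with the *Zbtb16* product, and with IL-4 after stimulation, in *Rag1Cre-Nfatc1fl/fl* mice. It reports no difference in the number of αβ NKT cells stained with a CD1d tetramer.

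The *Trbj* segments had 6, 3 and 8 reads in *Rag1Cre-Nfatc1fl/fl* libraries and 25, 4 and 12 in controls. *Trbj2-3* led with 3, 2 and 2 reads in *Rag1Cre-Nfatc1fl/fl* libraries and 6, 3 and 1 in controls. The first cluster, upstream of *Trbc1*, gave 5 of 17 reads in *Rag1Cre-Nfatc1fl/fl* libraries and 18 of 41 in controls, too few for any comparison.

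Of 20 genes of V(D)J recombination and end joining, which serve the assembly of these segments, 0 were called higher, 1 lower and 19 not, beside 9.98% called over all tested genes, with a median log2 fold change of -0.07. The lower gene was *Lig4*, the ligase that closes the DNA ends, at 25.6, 22.6 and 24 CPM in *Rag1Cre-Nfatc1fl/fl* libraries, against 50.6, 50.9 and 57.7 in controls (log2 fold change -1.14, edgeR adjusted p = 0.000234). *Rag1*, one of the genes of the recombinase, had 83, 33.2 and 130 CPM in *Rag1Cre-Nfatc1fl/fl* libraries and 83.9, 68.1 and 67.5 in controls (0.17, edgeR adjusted p = 0.793). Only the *Rag1Cre-Nfatc1fl/fl* mice make Cre from the *Rag1* locus. An effect of that allele on *Rag1* reads, or on any segment compared here, cannot be told apart from one of the *Nfatc1* deletion. The order of *Rag1* within the *Rag1Cre-Nfatc1fl/fl* group, replicate 3 highest and replicate 2 lowest, was also that of the *Trbv* sum. Such a match can arise by chance with so few libraries, and a link was not tested. Of 20 genes of the pre-TCR, the CD3 chains and receptor signalling, 4 were called higher (*Zap70*, *Cd4*, *Cd5* and *Cd6*), 1 lower (*Themis*) and 15 not. Over all tested genes 6.47% were called higher and 3.51% lower, and the median of the 20 was 0.14. *Ptcra*, the pre-TCRα chain, had 1.19, 0.91 and 2.64 CPM in *Rag1Cre-Nfatc1fl/fl* libraries and 1.51, 1.27 and 0.934 in controls (0.34, edgeR adjusted p = 0.604).

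The summed markers of CD4+CD8+ and αβ thymocytes moved within the *Rag1Cre-Nfatc1fl/fl* group in the order of the *Trbc* sum. *Themis*, *Arpp21*, *Mns1* and *Tcf12* did not have this order, while the other markers did. *Mns1* (50.7, 42.7 and 37.6 CPM) and *Tcf12* (166, 150 and 103 CPM) were lowest in *Rag1Cre-Nfatc1fl/fl* replicate 3. The 13 markers summed to 933, 660 and 1110 CPM in *Rag1Cre-Nfatc1fl/fl* libraries, beside 954, 895 and 1270 for *Trbc*, and to 1160 to 1210 CPM in controls, beside 1150 to 1160. *Cd8a* had 69.3, 31.4 and 136 CPM in *Rag1Cre-Nfatc1fl/fl* libraries and 55.1, 50.7 and 45.2 in controls (log2 fold change 0.64, edgeR adjusted p = 0.313). Of the 13 markers 1 was called higher (*Cd4*) and 4 lower (*Themis*, *Endou*, *Mns1* and *Tcf12*), 8 were not called, and none was at 0. Over all tested genes 6.47% were called higher and 3.51% lower. By flow cytometry, the paper found CD4 on part of the γδ thymocytes, and on a larger part in *Rag1Cre-Nfatc1fl/fl* mice. *Cd4* therefore does not mark CD4+CD8+ and αβ thymocytes alone here, though it is in their sum. The part of CD4+CD8+ and αβ thymocytes in the *Trbc* and *Trbv* levels was not tested. The 4 myeloid markers used here summed to 29.9, 18.5 and 86.9 CPM in *Rag1Cre-Nfatc1fl/fl* libraries and 34.8, 11.7 and 7.39 in controls, and erythroid markers to 9.54, 5.78 and 37.5 CPM in *Rag1Cre-Nfatc1fl/fl* libraries and 19.8, 2.99 and 12.4 in controls, so replicate 3 was also the highest for both. Of the 5 B cell markers only *Cd79b* was tested and it was lower, and their sum was 13.9 to 19.1 CPM in *Rag1Cre-Nfatc1fl/fl* libraries and 24.9 to 28 in controls. Among 4 markers of thymic epithelium *Epcam* alone was tested and lower, and the sum was 8.15 to 10.8 CPM in *Rag1Cre-Nfatc1fl/fl* libraries and 18.4 to 20.3 in controls. Of 10 γδ markers 6 were called lower and 0 higher, beside 3.51% and 6.47% of all tested genes. The lower ones include *Trdc*, *Tcrg-C1* and *Tcrg-C3*, already counted above. The 10 summed to 2270 to 2530 CPM in *Rag1Cre-Nfatc1fl/fl* libraries and 3380 to 3470 in controls.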

How the data were processed

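Poly(A) RNA of 6 libraries was sequenced with single-end reads and a kit that does not mark strand. According to the study's methods, the authors trimmed them with cutadapt, aligned them with STAR to GRCm38 and counted them with featureCounts. The deposited tables hold whole-number read counts per gene (total and unique, gene, exon and intron). Their layout differs from featureCounts output, and which program produced it is not given in the sources consulted. Of the 189 segments 183 have no exon length in the tables, and 168056 of their 168063 reads stand in the intron column, so total gene reads were used.

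The quasi-likelihood test of edgeR 4.0.16 (R 4.3.3) was run with filterByExpr, TMM and genotype alone, with p-values adjusted by Benjamini-Hochberg across the 13185 genes tested. It was checked on simulated counts with the same spread in both genotypes and with changes only in genes of many reads. That check does not cover a library that stands apart or segments with few reads. The members and lists were chosen with earlier results of these data known, and 1 gene of the marker lists is not reported here. Segments were named by rule: the constant and D genes, the NKT segments and their β partners, the 6 highest of each class by mean CPM, and called ones. Segments of the rule with no read are mostly given as counts. Alternatives were RLE factors, library size only, other filters, DESeq2 1.42.0, limma-voom (limma 3.58.1), unique reads, a replicate block, receptor genes left out of scaling, another threshold and each library left out. Coding sequences came from GENCODE vM1, in which 33 members matched by symbol and gene ID. The γ constant genes were matched to 4 listed symbols through RefSeq synonyms. Figures were drawn with matplotlib 3.10.9.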

Additional observations from a re-analysis of the deposited data

How the results depend on the processing

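No segment was called higher in *Rag1Cre-Nfatc1fl/fl* libraries except with DESeq2 (1, *Trbv2*), without *Rag1Cre-Nfatc1fl/fl* replicate 3 (1) and at an adjusted p under 0.05 without a fold limit (2). The called lower segments numbered 2 without the filter, 2 with DESeq2 and 4 at that threshold. Without any one library the higher calls ranged from 0 to 1 and the lower calls from 0 to 3. They were 0 lower without *Rag1Cre-Nfatc1fl/fl* replicate 2 or any one control, and 1 higher (*Trbv2*) and 3 lower (*Trbv13-2*, *Trav16* and *Trav14-3*) without *Rag1Cre-Nfatc1fl/fl* replicate 3. *Trav14-3* was the only call with RLE factors, library size only, the filter blind to genotype, limma-voom, unique reads, and receptor genes out of scaling. Some fold changes changed sign, none with a call. Without any one library, *Trbc2* ranged from -0.22 to 0.04 (0.03 without *Rag1Cre-Nfatc1fl/fl* replicate 2), *Trbv13-1* from -0.44 to 1.03, *Trbv29* from -0.21 to 0.63, *Trbv1* from -0.68 to 0.52, *Trbv3* from -0.61 to 2.17 and *Trbv16* from -0.28 to 0.07. *Trbv1* also gave -0.17 with limma-voom and -0.09 with the replicate block. The *Trav* log2 ratio of -0.39 was -0.74 by unique reads, which drop the shared reads of the d copies. The *Trac* ratio of 0.47 was 0.37 by library size only. The summed *Trbv* ratio of 0.20 was -0.17 without *Rag1Cre-Nfatc1fl/fl* replicate 3. Same-numbered libraries correlated in their deviations at 0.06, 0.19 and 0.06, each best with its own number, a hint from the data only. With the number as a replicate block 1171 genes were called, against 1316 without it, with 1 segment lower and 0 higher in both. The alternative with exon reads could not be run, since the segments carry next to none. The 71 segments with reads that were not tested had counts below the filter.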
